A study of Homo sapiens with 12 samples.

Results

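The genes described here are *MYC* and 9 target genes of the Wnt/β-catenin pathway, namely *AXIN2*, *LGR5*, *ASCL2*, *SP5*, *NKD1*, *ZNRF3*, *RNF43*, *TCF7* and *LEF1*. They were taken by their gene symbols, 10 of the 26364 symbols for which reads were counted, and followed through all 12 RNA-seq libraries of the study, in which the effect of inhibiting topoisomerase 1 or 2 on gene expression was measured. HCT116 is a human colon cancer cell line. HCT116 wildtype (WT) cells and a clone of them lacking NF-κB p65 were each left without inhibitor or treated with 5 µM of the topoisomerase 1 (TOP1) inhibitor CPT or of the topoisomerase 2 inhibitor ICRF193, and each of these was left without TNFα (0 h) or given 20 ng/mL TNFα for 1 h. TNFα was added after 2 h of pre-incubation with the inhibitor. The labels do not state whether the cells without TNFα were kept in inhibitor for that additional hour, nor whether cells without inhibitor received vehicle. Every condition was sequenced once, without a replicate.

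In the canonical Wnt pathway, ligands bind Frizzled and LRP receptors and stop a destruction complex built on *APC* and *AXIN1* from marking β-catenin for degradation. β-catenin then enters the nucleus, binds transcription factors of the TCF/LEF family and switches on target genes. Several of these targets feed back on the pathway: *AXIN2* adds to the destruction complex, *NKD1* acts against Dishevelled, and *ZNRF3* and *RNF43* are membrane ubiquitin ligases that remove Frizzled receptors from the cell surface. *LGR5*, a receptor for R-spondins, and the transcription factor *ASCL2* mark intestinal stem cells. *SP5* is a transcription factor of the Sp family, and *TCF7* and *LEF1* belong to the TCF/LEF family itself. *MYC* drives growth and ribosome production. HCT116 cells carry an activating mutation in the β-catenin gene *CTNNB1*, so that the pathway is on without added Wnt.

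TCF/LEF factors bind DNA that contains the letters CTTTGA or CTTTGT, which read TCAAAG or ACAAAG on the other strand. These letters were searched on both strands in the 250 bases before the transcription starts listed by RefSeq on GRCh38.p14, a build that differs from the hg19 build of the counts. Windows of 4 of the 10 genes were searched (*SP5*, *RNF43*, *TCF7* and *LEF1*; 6 windows in all). *MYC* was not searched, which does not mean that RefSeq lists no start for it. *SP5* is shown because its window held 4 matches, and *RNF43* because its counts responded to CPT and differed between the cell lines. The windows lie at chr2:170715087-170715336 on the plus strand for *SP5* and at chr17:58417535-58417784 on the minus strand for *RNF43*, and the matches are printed in capitals.
SP5: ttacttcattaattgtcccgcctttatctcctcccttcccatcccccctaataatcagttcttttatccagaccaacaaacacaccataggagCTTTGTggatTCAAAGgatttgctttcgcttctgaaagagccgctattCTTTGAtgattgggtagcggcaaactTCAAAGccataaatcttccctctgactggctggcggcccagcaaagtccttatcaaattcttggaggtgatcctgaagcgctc
RNF43: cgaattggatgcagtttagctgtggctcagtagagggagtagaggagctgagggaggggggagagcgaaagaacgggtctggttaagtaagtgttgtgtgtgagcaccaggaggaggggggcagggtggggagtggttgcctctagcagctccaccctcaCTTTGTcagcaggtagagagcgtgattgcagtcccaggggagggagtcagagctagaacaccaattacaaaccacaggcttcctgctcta
The 4 matches before *SP5* started 157, 147, 109 and 83 bases ahead of the transcription start, and the single match before *RNF43* started 90 bases ahead of it. A second *RNF43* window held 1 match, a second *TCF7* window held 2, and the other *TCF7* window and the *LEF1* window held 0. Among all 35116 RefSeq windows of this length, 22.8% held at least 1 of the letters (11.2% CTTTGA and 13.7% CTTTGT) and 20 windows, or 0.057%, held 4 or more. The E-box CACGTG, to which *MYC* and its partner *MAX* bind, was in 6.35% of all windows. It was in 0 of the 6 windows searched for these genes, which include no window of *MYC*. A match is a description of the letters and not a measured binding site.

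Between 8101212 and 22051046 reads were counted per library. All 6 WT libraries had at least 16300210, as did the p65-deficient libraries without inhibitor and with CPT at 0 h, whereas the other 4 p65-deficient libraries had 8101212 to 8755001. In the clone, a low depth therefore went along with TNFα in the pairs without inhibitor and with CPT, where depth and TNFα cannot be told apart. Levels are given as CPM, the reads of a gene scaled to a common library size, with library sizes adjusted by TMM, a method that sets the typical gene equal between libraries. The labels call the p65-deficient libraries shRNA p65, whereas the study's methods describe them as the single-cell clone 32 made with CRISPR-Cas9. As 1 clone was sequenced, loss of p65 and other properties of this clone cannot be told apart. *RELA*, which encodes p65, ranged from 48.1 to 64.2 CPM in the 6 WT libraries and from 39.1 to 46.7 CPM in the 6 p65-deficient libraries, without overlap, so that its mRNA was lower but present in the clone and gives no measure of the protein. *TOP1* ranged from 126 to 159 CPM over the 12 libraries. The epithelial markers *EPCAM* (329 to 450 CPM), *CDH1* (74.1 to 107 CPM), *KRT8*, *KRT18* and *KRT19* were found in all libraries. Of the intestinal differentiation markers *CDX2* reached 12.3 to 25.1 CPM and *KRT20* 1.21 to 2.00 CPM, while *VIL1*, *LGALS4* and *MUC2* stayed below 1 CPM and *CDX1* had 0 reads. Of the markers of other cell types, *COL1A2*, *PTPRC* and *PECAM1* stayed at or below 0.170 CPM, *VIM* reached at most 2.29 CPM, and *COL1A1* (5.26 to 13.5 CPM) and *CD68* (14.1 to 24.4 CPM) were present.

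*MYC* was by far the most abundant of the 10 genes, and 4 of the 10 were at or near the limit of detection. Per kilobase of full exonic length and in WT cells without inhibitor or TNFα, *MYC* reached 381 CPM per kilobase. *ZNRF3* reached 3.99, *RNF43* 3.74, *TCF7* 3.07, *AXIN2* 2.39 and *NKD1* 1.26 CPM per kilobase. With 1 library per condition neighbouring values cannot be separated by a test. In the same condition in p65-deficient cells, *RNF43* reached 7.22 and *ZNRF3* 4.25 CPM per kilobase. The *RNF43* length includes 1228 bases shared with an opposite-strand gene, where reads matching both genes were not counted. Its values per kilobase are therefore too low, and the order of *RNF43* and *ZNRF3* in WT cells cannot be given. *SP5* had 2 to 12 reads per library, and *LGR5* and *ASCL2* had 0 to 4 reads each. *LEF1* had 0 reads in all 12 libraries, which allows a level of up to 0.0164 CPM over the 12 libraries together (3 reads, counting error only). The stem cell markers *LGR5* and *ASCL2* and the factors *SP5* and *LEF1* were therefore too low for a comparison of conditions, and 6 of the 10 genes (*MYC*, *AXIN2*, *NKD1*, *ZNRF3*, *RNF43* and *TCF7*) had enough reads to be tested in every comparison. *SP5* was tested only where CPT effects were compared between cell lines or TNFα times.

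**Figure D1:**
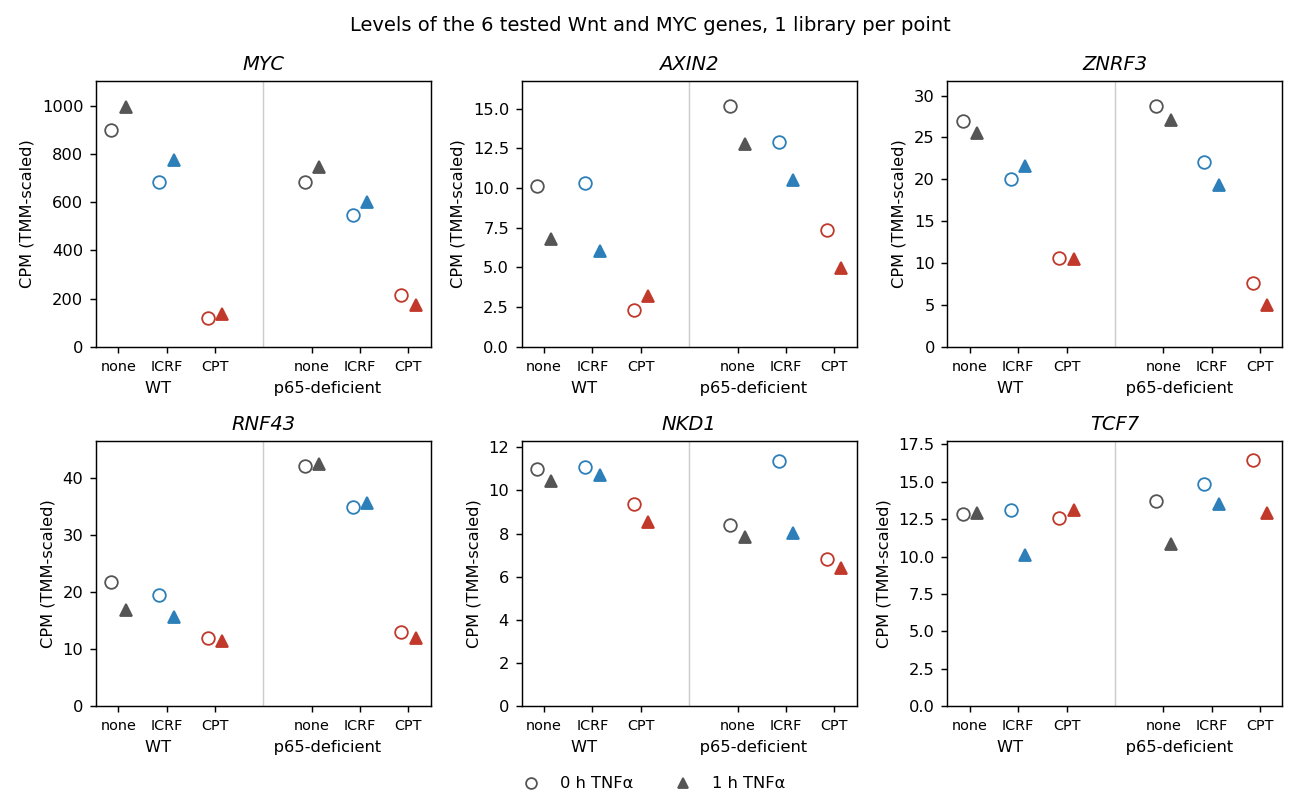
Level of the 6 tested genes in each of the 12 libraries, in TMM-scaled CPM on linear axes starting at 0, by cell line and inhibitor (none, ICRF193 labelled ICRF, CPT). Circles are 0 h and triangles 1 h TNFα, and each point is 1 library. The 4 CPT libraries lie lowest for *MYC*, *ZNRF3* and *RNF43*, while *TCF7* stays between 10.1 and 16.4 CPM throughout.

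CPT lowered *MYC* and 3 of the Wnt feedback genes. *MYC* fell 5.12-fold, *ZNRF3* 3.10-fold, *AXIN2* 2.52-fold and *RNF43* 2.28-fold, whereas *NKD1* and *TCF7* did not pass the test. The comparison used the 8 libraries with CPT or without inhibitor as 4 pairs matched on cell line and TNFα time, with edgeR's quasi-likelihood test on the counts of all genes, the pair as a block and Benjamini-Hochberg adjustment. The pairs stand in for replicates, so p-values measure the spread between these pairs. CPT changed much of the transcriptome: of 13993 genes tested, 48.3% passed the threshold of an adjusted p under 0.05, with 3251 higher and 3512 lower. Against this background, 4 of the 6 tested genes passed, all of them lower, and their median log2 fold change was -1.26 compared with 0.0241 for all genes. Values are relative to all RNA in a library, and in these bulk samples fewer expressing cells and less RNA per cell cannot be told apart.

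*MYC* lies on chromosome 8 of hg19 from 128748315 to 128753680. Without inhibitor its level was 901 CPM in WT and 682 CPM in p65-deficient cells at 0 h, and 997 and 745 CPM at 1 h TNFα. With CPT it was 121, 214, 138 and 174 CPM in the same order, so that every CPT library was below every library without CPT. The log2 fold change was -2.35 ± 0.17 (SE; adjusted p = 9.17e-07 by edgeR, 4 pairs), and the 4 pairs ranged from -2.90 to -1.67. *MYC* thus lay at the 0.491 percentile of the log2 fold changes of all tested genes annotated at a single locus.

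*AXIN2*, on chromosome 17 from 63524683 to 63557740, fell from 10.1 to 2.30 CPM in WT and from 15.2 to 7.37 CPM in p65-deficient cells at 0 h. At 1 h TNFα it fell from 6.82 to 3.22 CPM in WT and from 12.7 to 4.94 CPM in p65-deficient cells. The p65-deficient CPT library at 0 h was above WT cells without inhibitor at 1 h, so that the groups overlapped, but *AXIN2* was lower with CPT in 4 of 4 pairs. Its log2 fold change was -1.33 ± 0.17 (SE; adjusted p = 6.97e-05 by edgeR). These are small counts, 40 to 136 reads in the CPT libraries.

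The membrane ligases *ZNRF3* and *RNF43* fell in all 4 pairs as well. *ZNRF3*, on chromosome 22 from 29279755 to 29453476, measured 27.0, 28.8, 25.6 and 27.1 CPM without inhibitor (WT and p65-deficient at 0 h, then WT and p65-deficient at 1 h) and 10.6, 7.58, 10.5 and 4.94 CPM with CPT. Its groups did not overlap, and the log2 fold change was -1.63 ± 0.16 (SE; adjusted p = 8.47e-06 by edgeR). *RNF43*, on chromosome 17 from 56429861 to 56494943, measured 21.8, 42.1, 16.9 and 42.3 CPM without inhibitor and 12, 13.1, 11.5 and 11.9 CPM with CPT in the same order. The 4 CPT libraries of *RNF43* lay close together although the libraries without inhibitor did not, and the log2 fold change was -1.19 ± 0.18 (SE; adjusted p = 0.000269 by edgeR). *RNF43* shares 1228 exonic bases with the opposite-strand gene *BZRAP1-AS1* (4 to 37 reads per library). Reads were counted without regard to strand and those covering both genes went to neither by the counter's default, so that the *RNF43* values leave out that stretch. *ZNRF3-AS1*, on the opposite strand of *ZNRF3*, shares 0 exonic bases with it and had 1 to 7 reads.

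*NKD1* and *TCF7* differed from the other 4 genes in not passing the test. *NKD1*, on chromosome 16 from 50582241 to 50674771, measured 11, 8.40, 10.4 and 7.82 CPM without inhibitor and 9.38, 6.82, 8.55 and 6.39 CPM with CPT. It was lower in 4 of 4 pairs by similar amounts (-0.30 to -0.23), and its log2 fold change of -0.24 ± 0.10 (SE) had an adjusted p of 0.0678 by edgeR. *TCF7*, on chromosome 5 from 133450402 to 133483920, measured 12.9, 13.7, 12.9 and 10.8 CPM without inhibitor and 12.5, 16.4, 13.1 and 12.9 CPM with CPT. It was higher in 3 of 4 pairs, with a log2 fold change of 0.14 ± 0.10 (SE; adjusted p = 0.24 by edgeR).

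**Figure D2:**
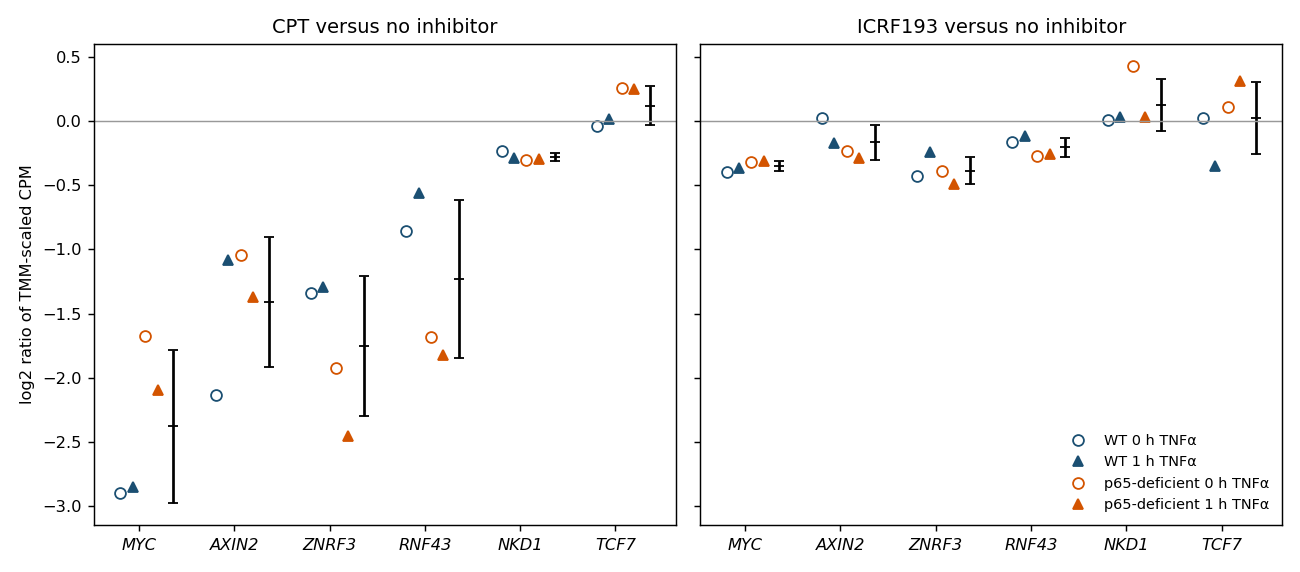
Log2 ratio of TMM-scaled CPM, inhibitor over no inhibitor, in each of the 4 matched pairs for CPT (left) and ICRF193 (right), on a common linear axis. Blue is WT, orange p65-deficient, circles 0 h and triangles 1 h TNFα, and the black bars are the mean ± SD of the 4 pairs. *MYC*, *AXIN2*, *ZNRF3* and *RNF43* are below 0 in all 4 CPT pairs, and the *MYC* ratios with ICRF193 lie between -0.40 and -0.31.

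ICRF193 had a far smaller effect. Of 13631 genes tested 2.17% passed the threshold, and of the 6 genes *MYC* and *ZNRF3* did, both lower. *MYC* measured 685, 547, 774 and 602 CPM with ICRF193 (WT and p65-deficient at 0 h, then at 1 h), and each of these was below its own matched library without inhibitor although the groups overlapped. The log2 fold change was -0.34 ± 0.03 (SE; adjusted p = 3.12e-09 by edgeR, lower in 4 of 4 pairs). *ZNRF3* measured 20.1, 22, 21.6 and 19.3 CPM with ICRF193, below all 4 libraries without inhibitor, with a log2 fold change of -0.36 ± 0.06 (SE; adjusted p = 0.000197). Both calls rest on the matching: without the pair block, and in 1 additive fit of all 12 libraries, 0 of the 6 genes passed.

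The remaining 4 genes did not pass with ICRF193. *RNF43* was lower in 4 of 4 pairs, with a log2 fold change of -0.20 ± 0.06 (SE; adjusted p = 0.0799 by edgeR), and *AXIN2* was lower in 3 of 4 pairs (-0.14 ± 0.09, adjusted p = 0.602). *NKD1* was higher in 4 of 4 pairs, by 0.01 to 0.43 (log2 fold change 0.12 ± 0.09, adjusted p = 0.663). For *TCF7* the pairs went from -0.35 to 0.32.

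Both inhibitors were used at the same concentration and times, and they can be compared directly in 4 matched pairs. Of 13900 genes tested, 46.4% differed between CPT and ICRF193. Among the 6 genes 5 were lower with CPT: *MYC* (log2 fold change -2.03 ± 0.15), *ZNRF3* (-1.28 ± 0.14), *AXIN2* (-1.20 ± 0.19), *RNF43* (-1.004 ± 0.16) and *NKD1* (-0.39 ± 0.12, SE), with edgeR adjusted p-values of 1.92e-07, 8.49e-06, 0.000208, 0.000162 and 0.0179 in this order. Each of the 5 was lower with CPT in 4 of 4 pairs. *TCF7* did not pass (0.11 ± 0.11, adjusted p = 0.414). The *NKD1* call was lost with DESeq2 (adjusted p = 0.102), without the pair block (adjusted p = 0.072) and without the p65-deficient pair at 0 h (adjusted p = 0.0913). The comparisons with no inhibitor and with ICRF193 share the CPT libraries, and are not independent of each other.

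TNFα moved these genes little. In WT cells, with 3 pairs matched on inhibitor, 0.642% of 13707 genes passed the threshold. *NFKBIA*, an NF-κB target that encodes the inhibitor IκBα, rose with a log2 fold change of 2.48 ± 0.24 (SE; adjusted p = 6.05e-07 by edgeR), and its 3 pairs ranged from 0.90 with CPT to 3.27 without inhibitor. Of the 6 genes only *MYC* passed, with a rise from 901 to 997 CPM without inhibitor, from 121 to 138 CPM with CPT and from 685 to 774 CPM with ICRF193. Its log2 fold change was 0.17 ± 0.04 (SE; adjusted p = 0.0239 by edgeR, higher in 3 of 3 pairs). The call was lost under 6 of 9 alternatives, among them total-count scaling (adjusted p = 0.0618), DESeq2 (adjusted p = 0.0866) and the fit without the pair block (adjusted p = 1).

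The *AXIN2* values in WT cells were lower after TNFα in the pairs without CPT. In the CPT pair the interval of the ratio included 0 and lay above the intervals of the other pairs. *AXIN2* went from 10.1 to 6.82 CPM without inhibitor and from 10.3 to 6.06 CPM with ICRF193, and went from 2.30 to 3.22 CPM with CPT (40 and 64 reads). The log2 ratios were -0.57 (95% interval -0.90 to -0.24), -0.77 (-1.13 to -0.41) and 0.48 (-0.11 to 1.09). These Clopper-Pearson intervals cover counting error only and compare single libraries. The interaction of CPT with TNFα, tested over both cell lines, did not pass for *AXIN2* (unadjusted p = 0.459, adjusted p = 1 by edgeR). As it pooled the cell lines, it could not decide whether the pairs differed in WT cells alone. Over the 3 pairs *AXIN2* did not pass (log2 fold change -0.46 ± 0.15, adjusted p = 0.507 by edgeR). Without the CPT pair, *AXIN2* passed with a log2 fold change of -0.66 (adjusted p = 0.000376), and so did *RNF43* with -0.35 (adjusted p = 0.0132), which over 3 pairs had -0.26 ± 0.09 (SE; adjusted p = 0.489).

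In p65-deficient cells 0.498% of 12858 genes passed for TNFα, and 0 of the 6 genes did with edgeR or with DESeq2, while 2 had an unadjusted p under 0.05 with edgeR. *AXIN2* was one of them. It went from 15.2 to 12.7 CPM without inhibitor, from 12.9 to 10.5 CPM with ICRF193 and from 7.37 to 4.94 CPM with CPT (log2 fold change -0.32 ± 0.12, adjusted p = 0.244). *TCF7* was the other (log2 fold change -0.27 ± 0.11, adjusted p = 0.277). *MYC* had a log2 fold change of 0.02 ± 0.05 (SE; adjusted p = 0.887), with pairs of 0.13 without inhibitor, 0.14 with ICRF193 and -0.29 with CPT. An interaction over 6 pairs tested whether the cell lines responded unequally to TNFα, and in it 0.228% of 14459 genes passed. Of the 6 genes 0 passed with edgeR or DESeq2, and 1 had an unadjusted edgeR p under 0.05, namely *RNF43*. The effect of TNFα on these genes was thus not shown to differ between WT and p65-deficient cells.

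The p65-deficient clone differed from WT cells at *AXIN2*, *RNF43* and *NKD1*. The 12 libraries formed 6 pairs matched on inhibitor and TNFα time, and 32.1% of 13730 genes passed, compared with 3 of the 6 genes. *RNF43* was higher in the clone in 6 of 6 pairs (log2 fold change 0.80 ± 0.14, SE; adjusted p = 0.000746 by edgeR), but the pairs split by inhibitor. Without CPT, *RNF43* ranged from 15.6 to 21.8 CPM in WT and from 34.8 to 42.3 CPM in p65-deficient cells, and the 4 log2 ratios were 0.84 to 1.32. With CPT the ratios were 0.12 (95% interval -0.15 to 0.40) at 0 h and 0.06 (-0.30 to 0.40) at 1 h. The *RNF43* levels of the cell lines thus lay apart without CPT, and with CPT their difference was within counting error.

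*AXIN2* was higher in the clone in 6 of 6 pairs as well, with log2 ratios from 0.32 to 1.68 and a log2 fold change of 0.77 ± 0.13 (SE; adjusted p = 0.000623 by edgeR). *NKD1* was lower in 5 of 6 pairs (log2 fold change -0.34 ± 0.09, SE; adjusted p = 0.0129). The exception was ICRF193 at 0 h, where *NKD1* measured 11.1 CPM in WT and 11.4 CPM in p65-deficient cells. Without the pair block 0 of the 6 genes passed (adjusted p of 0.074 for *RNF43*, 0.207 for *AXIN2* and 0.103 for *NKD1*). In the 2 pairs of comparable depth *AXIN2* alone passed, and *RNF43* (0.57, adjusted p = 0.125) and *NKD1* (-0.43, adjusted p = 0.273) did not.

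*MYC*, *ZNRF3* and *TCF7* did not differ by this test (adjusted p of 0.708, 0.377 and 0.239). For *MYC* the pairs went in opposite directions. Without CPT, *MYC* was lower in the clone in 4 of 4 pairs, with log2 ratios from -0.42 to -0.32, and with CPT it was higher in the clone, by 0.83 at 0 h and 0.34 at 1 h. Without the CPT pair at 0 h, *MYC* passed as lower in the clone (log2 fold change -0.24, adjusted p = 0.0216).

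**Figure D3:**
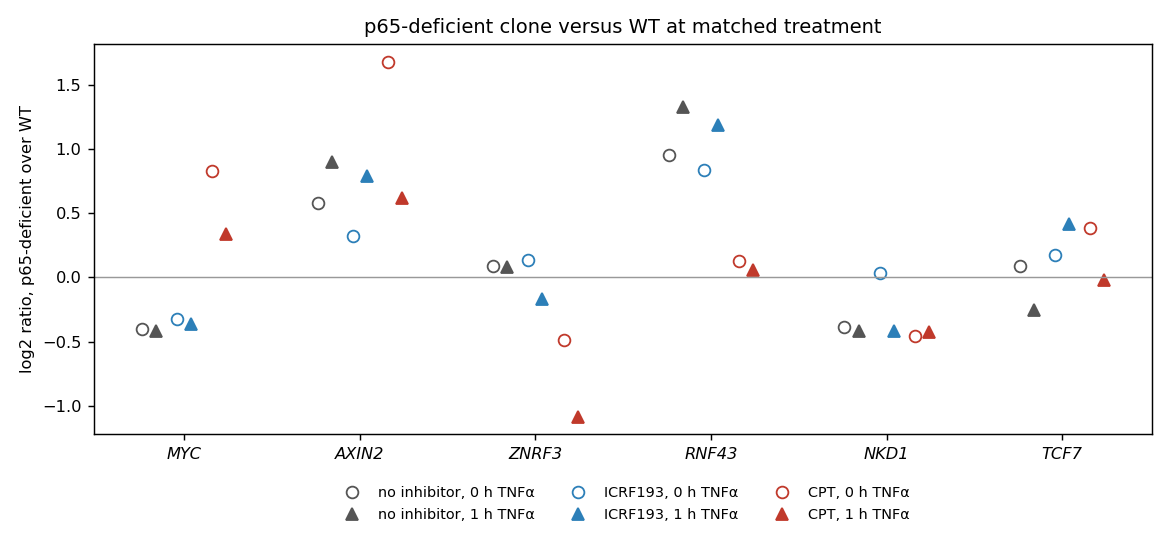
Log2 ratio of TMM-scaled CPM, p65-deficient clone over WT, for the 6 genes in each of the 6 matched pairs, on a linear axis. Grey is no inhibitor, blue ICRF193, red CPT, circles 0 h and triangles 1 h TNFα. The CPT pairs lie apart from the other 4 for *MYC* (above them), *ZNRF3* and *RNF43* (below them).

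Whether CPT acted differently in the 2 cell lines was tested as an interaction in the 8 libraries with CPT or no inhibitor, and 4.78% of 14573 genes passed. Among 7 tested genes 3 did. *MYC* fell less in p65-deficient cells: its log2 ratios were -2.90 and -2.86 in WT and -1.67 and -2.09 in the clone, a difference (p65-deficient minus WT) of 0.99 ± 0.10 (SE; adjusted p = 1.53e-05 by edgeR). *RNF43* and *ZNRF3* fell more in the clone. *RNF43* had log2 ratios of -0.86 and -0.56 in WT and -1.68 and -1.83 in the clone, with a difference of -1.04 ± 0.16 (SE; adjusted p = 0.00069). *ZNRF3* had -1.34 and -1.29 in WT and -1.92 and -2.45 in the clone, with a difference of -0.79 ± 0.18 (SE; adjusted p = 0.0162), which was lost with DESeq2 (adjusted p = 0.203) and without the p65-deficient pair at 1 h (adjusted p = 0.101). The p65-deficient CPT library at 1 h held 41 reads of *ZNRF3*. *AXIN2*, *SP5*, *NKD1* and *TCF7* did not pass. For *AXIN2* the difference of 0.44 ± 0.27 (SE; adjusted p = 0.406) depended on which WT pair was used, since the 0 h pair had a log2 ratio of -2.14 and the 1 h pair of -1.08. Without the WT pair at 1 h, *AXIN2* passed (0.98, adjusted p = 0.0107), and without the WT pair at 0 h the difference was -0.07. The effect of CPT was not shown to depend on TNFα. Of 14573 genes 0.00686% passed that interaction. Of the 7 genes 0 did with edgeR or DESeq2, with 0 at an unadjusted edgeR p under 0.05. That interaction pooled WT with p65-deficient pairs. In it *NFKBIA* did not pass either (-1.39, unadjusted p = 0.0197 by edgeR). In WT cells *NFKBIA* went with TNFα from 64.3 to 619 CPM without inhibitor, but from 73.9 to 138 CPM with CPT. The test therefore cannot decide whether TNFα altered the CPT effect in WT cells.

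The study examined gene length beside the effects of both inhibitors, on genes induced by TNFα and on basal expression. It reported a tendency of CPT to inhibit long genes more among the TNFα-induced genes, and no correlation for ICRF193. For basal expression the correlation was below significance in the study. The medians given here are of all tested genes with the 0 h and 1 h pairs together, and so differ from the study's gene sets. For *MYC* and the Wnt targets the spans are given here only as a description. Genomic span is the distance from the first to the last base of the gene on hg19. The median CPT log2 fold change went from 0.238 in the 1965 tested genes under 5000 bp to -0.131 in the 745 genes over 200000 bp. *MYC*, with a span of 5366 bp, had the lowest log2 fold change of the 6 genes and *ZNRF3*, with 173722 bp, the next lowest. *AXIN2* (33058 bp) and *TCF7* (33519 bp) have nearly the same span, and CPT gave them log2 fold changes of -1.33 and 0.14. *RNF43* spans 65083 bp and *NKD1* 92531 bp, with log2 fold changes of -1.19 and -0.24. The order of the 6 genes by response was thus not their order by span.

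**Figure D4:**
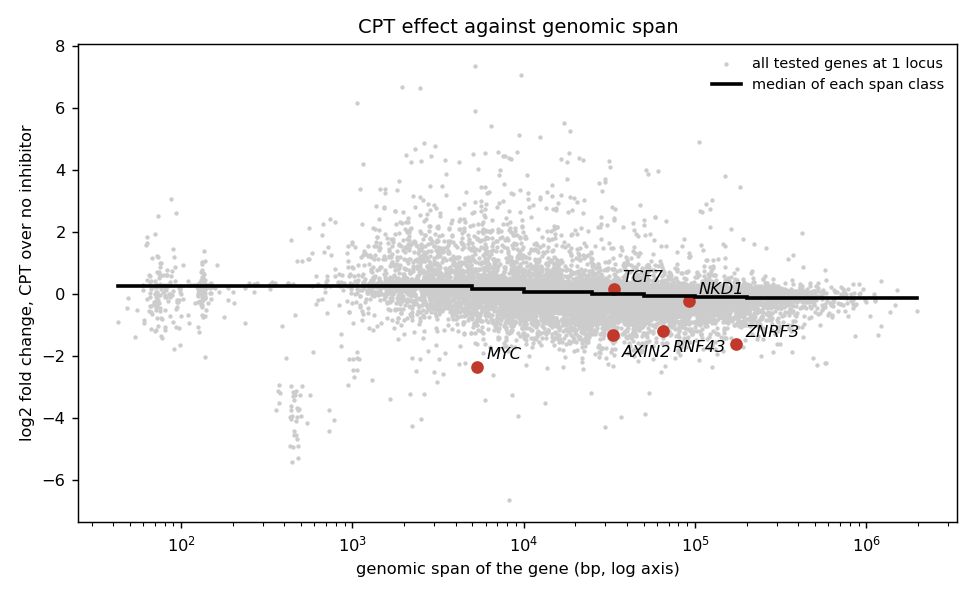
Log2 fold change with CPT over no inhibitor against genomic span in base pairs (log axis) for all tested genes at a single locus (grey), with the 6 genes in red and the median of each span class as a black line. The line falls from 0.238 to -0.131, and *MYC*, *AXIN2*, *RNF43* and *ZNRF3* lie well below it.

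Genes whose levels over the 12 libraries were most like those of *MYC* and *AXIN2* were found by the root mean square difference of centred log2 CPM, among 11307 genes with a mean of at least 50 reads. For *MYC*, whose own SD over the libraries was 1.13, the closest were *BCOR* (difference 0.227), *ZNF567* (0.262), *HIST4H4* (0.262), *TRIB1* (0.269) and *KCNK5* (0.277). *BCOR* encodes a transcriptional corepressor, *HIST4H4* a histone and *TRIB1* a pseudokinase. For *AXIN2*, with an SD of 0.819, they were *PLEKHF1* (0.284), *ZNF564* (0.302), *PRICKLE1* (0.303), *ZNF823* (0.316) and *ZNF266* (0.318). *PRICKLE1* belongs to the planar cell polarity branch of Wnt signalling. No Wnt target of the group was among the 5 genes closest to *MYC*, nor *MYC* or another of them among those closest to *AXIN2*. As only 5 genes were kept for each, this does not measure how alike *MYC* and the Wnt targets were. *LGR5*, *ASCL2*, *SP5* and *LEF1* were below the read limit and not searched.

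The other genes of the Wnt pathway were counted in the same way. With CPT 48.3% of all genes passed, 23.2% higher and 25.1% lower, and the shares of ligand, receptor and destruction complex genes that passed were near or below this background. Of 11 tested genes for Wnt ligands and their secretion, 0 were higher and 3 lower, among them *WNT7B* (log2 fold change -0.52) and *WNT16* (-0.31). Of 15 receptor genes 3 were higher, including the Frizzled genes *FZD1* (0.67) and *FZD7* (0.41), and 5 were lower, including the co-receptor *LRP6* (-0.51), the R-spondin receptor *LGR4* (-0.49) and *ROR2* (-0.62). Of 18 genes of the destruction complex and Dishevelled, 3 were higher and 6 lower. The scaffold *AXIN1*, the close relative of *AXIN2*, fell by 1.01 on the log2 scale, *AMER1* fell by 0.78 and *APC* fell by 0.41, while *APC2* rose by 1.22 and *DVL2* by 0.16. *CTNNB1*, which encodes β-catenin itself, rose by 0.12 (adjusted p = 0.0421 by edgeR, higher in 3 of 4 pairs). It stayed between 595 and 690 CPM in all 12 libraries.

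The nuclear partners of β-catenin were mostly lower with CPT, 9 of 14 compared with 1 higher. The acetyltransferase *EP300* fell by 0.99 on the log2 scale, *CHD8* fell by 0.74, the corepressor *TLE3* fell by 0.69 and the TCF family member *TCF7L2* fell by 0.47. Their median was -0.456, compared with 0.0241 for all genes. Of the 3 secreted antagonists with enough reads, *DKK1*, itself a Wnt target that blocks LRP receptors, fell 6.02-fold (log2 fold change -2.59 ± 0.07, SE; adjusted p = 1.06e-10). *DKK1* ranged from 209 to 637 CPM without inhibitor and from 37.2 to 101 CPM with CPT. *NOTUM*, a secreted enzyme that inactivates Wnt ligands, rose by 0.39 with edgeR and did not pass with DESeq2. Of 17 other genes known as β-catenin targets 2 were higher (*TBX3* by 0.91 and *EPHB3* by 0.65) and 6 lower, among them the growth factor *BMP4* (-1.81), the phosphatase *CDC25A* (-0.997) and *CEMIP* (-0.79). *BMP4* fell from between 103 and 125 CPM to between 28.9 and 37.8 CPM. The cyclin gene *CCND1* did not pass (0.08, adjusted p = 0.247). With 8 of 17 past the threshold, these targets were called about as often as all genes.

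For *MYC* the partners and the known targets were described in the same way, beside the 23.2% higher and 25.1% lower of all tested genes. *MAX*, the obligate partner of *MYC*, fell by 0.20 on the log2 scale (adjusted p = 0.0201 by edgeR). Of 17 genes of the *MAX* network and *MYC* regulators 1 was higher, the *MAX* partner *MXD3* (0.57), and 6 were lower, including *MIR17HG* (-1.06), the host of a microRNA cluster, *FBXW7* (-0.96), the ubiquitin ligase component that targets *MYC* protein, and *ZBTB17* (-0.39), which encodes the *MYC* partner MIZ1. Of 28 known *MYC* targets 13 were higher and 3 lower, and *MYC* itself fell 5.12-fold. The higher genes moved little, led by *PHB* (0.28), *CDK4* (0.25) and *NME1* (0.25). The lower ones were *RRS1* (-0.85), *POLR1B* (-0.56) and *NOP58* (-0.24). The median of the 28 was 0.0915, compared with 0.0241 for all genes. With DESeq2 size factors, total counts and the DESeq2 test, 13, 14 and 13 of them were higher and 3 lower each time.

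**Figure D5:**
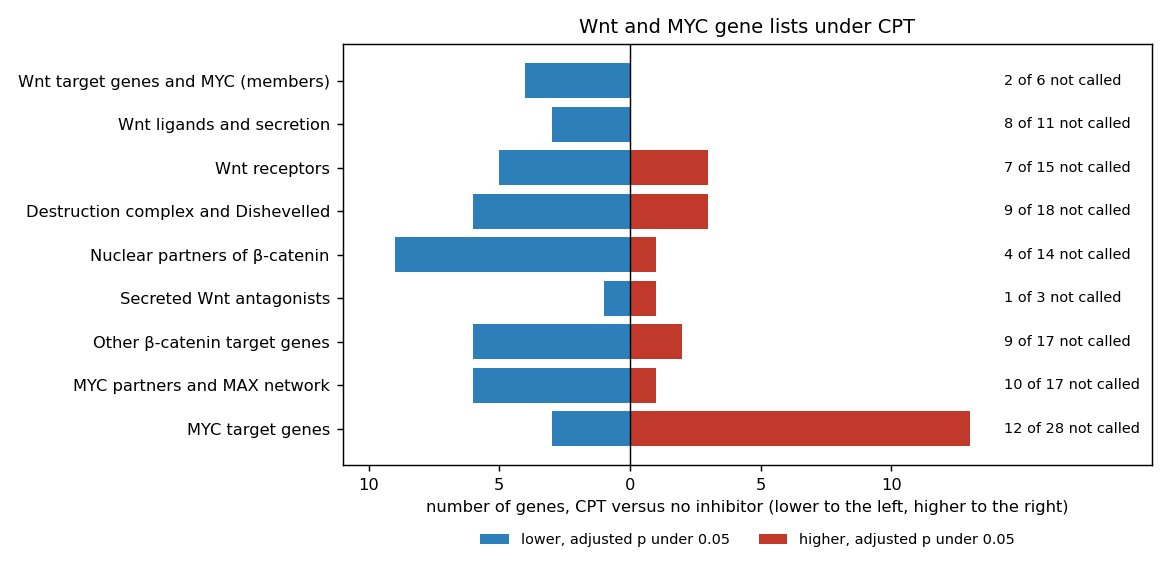
Number of genes of each Wnt or *MYC* list that passed the edgeR threshold with CPT, lower to the left in blue and higher to the right in red, with the number that did not pass at the right. The *MYC* target list has 13 higher and 3 lower of 28, and the nuclear partners of β-catenin 1 higher and 9 lower of 14. Of all tested genes 23.2% were higher and 25.1% lower.

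With ICRF193, for which 2.17% of all genes passed and 1.58% were lower, 4 genes of these further lists passed, all of them lower. They were *TCF7L2* (-0.34), 1 of 14 nuclear partners, *DKK1* (-0.12), 1 of 3 antagonists, and the transcription factor genes *SOX4* (-0.36) and *SOX9* (-0.29), 2 of 17 other targets. In p65-deficient compared with WT cells *DKK1* was lower in 6 of 6 pairs (log2 fold change -1.40 ± 0.04, SE; adjusted p = 4.92e-11 by edgeR). Of all genes 15.2% were higher and 16.9% lower in the clone, with a median of 0.00238. Of the *MYC* targets 2 of 28 were higher and 13 lower, with a median of -0.103, among them *NME1* (-0.25) and *CDK4* (-0.15). The interaction of CPT with the cell line, which 4.78% of all genes passed, was passed by 0 of the 28 *MYC* targets with edgeR. Of the 14 nuclear partners it was passed by *BCL9L* (0.64), and of the 17 other targets by *ID2* (1.19) and *SOX4* (-0.63). In the further lists it was passed by 1 of 13 ligand and secretion genes (lower) and by 1 of 17 *MAX* network genes (higher). Of 18 genes of the destruction complex and Dishevelled, 1 was higher and 1 lower. Of 15 receptor genes and 3 antagonists, 0 passed.

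Other genes moved with CPT beside those described. Of all tested genes 48.3% passed with CPT. Of the 17 markers checked, *CDX1*, *VIL1*, *LGALS4*, *MUC2*, *COL1A2*, *PTPRC* and *PECAM1* had too few reads to be tested. Among the others, *EPCAM* (0.17), *KRT8* (0.20) and *KRT18* (0.24) were higher with CPT, as were *COL1A1* (0.75) and *CD68* (0.34), and *CDX2* was lower (-0.78). *CDH1*, *KRT19* and *KRT20* did not pass. The part of these differences, and of the lower depth of 4 p65-deficient libraries, in the values of *MYC* and the Wnt targets was not tested.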

How the data were processed

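Per the file headers, the deposited values are raw counts of reads per gene, 1 column per library. The authors trimmed single-end reads with trimmomatic and counted reads on exons by gene symbol with featureCounts 1.5.0 and an hg19 annotation. The submitters' processing notes name STAR as well. The kit preserves strand, but no strand option was given, so that sense and antisense reads were counted together, and reads matching more than 1 gene were left out by default. No normalization was applied by the authors to these counts.

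From these counts, edgeR 4.0.16 in R 4.3.3 was used with TMM scaling, filterByExpr by the tested variable (minimum count 10, minimum total count 15), the quasi-likelihood test with the matched pair as a block, and Benjamini-Hochberg adjustment over all genes tested, with a threshold of 0.05. Only the libraries of each comparison entered its fit. Pairs belong to different conditions and are not replicates of 1 condition. Each SE was computed as the fitted change over the root of the F statistic, and may be smaller than the SD over pairs. Single-pair ratios carry exact Clopper-Pearson 95% intervals. Intervals and the limit of 3 reads for a count of 0 cover counting error only and take reads as independent molecules. The tests were also run on simulated counts, with the same change in every pair and a fixed spread for all genes. That setting does not cover pairs of unlike conditions whose changes differ, as here. Depth was 8101212 to 22051046 reads per library.

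The genes and lists were chosen with earlier results of these data known. Named are all 10 genes and, from each further list, up to 3 genes raised and 3 lowered most by CPT with a mean of at least 50 reads and 1 direction in 4 pairs. *CTNNB1*, *APC*, *TCF7L2*, *LGR4*, *CCND1*, *MAX*, *RELA*, *TOP1* and *NFKBIA* were named whatever their values. Of the list genes past the threshold in other comparisons only some are named. From the further lists, *NME1*, *CDK4* and *DKK1* alone are followed into the comparison of the clone with WT cells, where other list genes passed as well. Alternatives were DESeq2 size factors, total counts, DESeq2 1.42.0, no filter, no block, 1 additive fit, 2 pairs of comparable depth and leaving out each pair. Promoter windows were RefSeq's. Plots used Python 3.11.15, pandas 2.3.3, numpy 2.4.6 and matplotlib 3.10.9.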

Additional observations from a re-analysis of the deposited data

Results flagged for a closer look

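For 3 genes the effect of CPT differed between the cell lines by a test of the difference itself (edgeR interaction, p65-deficient minus WT). The difference was 0.99 on the log2 scale for *MYC*, -1.04 for *RNF43* and -0.79 for *ZNRF3*. The *MYC* and *RNF43* differences passed under all 8 alternatives run, and the *ZNRF3* difference under 6 of 8. The p65-deficient cells are 1 clone and their 1 h libraries are shallow, and the part of either in these differences was not tested. No group had 4 or more libraries, so that no library was tested as standing apart from its group.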

How the results depend on the processing

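Of 345 alternative values of single genes, 310 kept their direction and side of the threshold, 20 lost the call, 5 gained one and 10 changed sign. The CPT calls of *MYC*, *AXIN2*, *ZNRF3* and *RNF43* held under all 10 alternatives each. For ICRF193 the 2 calls became 0 without the pair block and 0 in the additive fit. For TNFα in WT cells the 1 call became 0 with total counts, 0 with DESeq2, 2 without the filter, 0 without the pair block, 0 in the additive fit and between 0 and 3 when pairs were left out. For the clone the 3 calls became 0 without the pair block and 1 in the 2 pairs of comparable depth. For the interaction of CPT with TNFα the count was between 0 and 1 when pairs were left out, the 1 being *MYC* without the WT pair at 0 h. The values that changed sign had not passed in the first place: *TCF7* with ICRF193 (0.0162 with total counts, 0.0190 with DESeq2, 0.0258 without the pair block, 0.0096 in the additive fit, and -0.0597 to 0.133 when pairs were left out), *MYC* in the clone (0.191 in the 2 pairs of comparable depth and -0.239 to 0.0107 when pairs were left out), *MYC* with TNFα in the clone (-0.0546 to 0.150 when pairs were left out) and *AXIN2* in the interaction of CPT with the cell line (-0.0686 to 0.984 when pairs were left out). The cause of these changes was not tested. No paired analysis by replicate number was possible because no condition had a replicate. Beyond these, leaving out the pair block ended the call of *NKD1* between the inhibitors. Depth limits *LGR5*, *ASCL2*, *SP5* and *LEF1*, which had at most 12 reads. For the further Wnt and *MYC* lists, DESeq2 size factors, total counts and the DESeq2 test were added after seeing the data. Under them 0 of the genes called with CPT or in the clone changed sign, but some calls were lost. With CPT and the DESeq2 test, the lower genes went from 5 to 3 for receptors and from 3 to 2 for ligands and secretion. They went from 9 to 8 for nuclear partners, and from 6 to 5 for other targets and for the *MAX* network. The *MYC* targets kept 13 higher and 3 lower.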

Other observations

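*MIR17HG*, the host transcript of a microRNA cluster that *MYC* is known to activate, went up with TNFα in p65-deficient cells. It went from 20.5 to 31.9 CPM without inhibitor, from 9.21 to 16.6 CPM with CPT and from 20.1 to 27.5 CPM with ICRF193. The log2 fold change was 0.65 ± 0.09 (SE; adjusted p = 0.000317 by edgeR, higher in 3 of 3 pairs). In WT cells the same steps were 22.3 to 23.3, 11.5 to 9.61 and 18.7 to 20.2 CPM, and the difference between the cell lines (WT minus p65-deficient) was -0.64 ± 0.13 (SE; adjusted p = 0.0336 by edgeR). *MYC* itself had a log2 fold change of 0.02 with TNFα in the p65-deficient cells. The ICRF193 pair, in which both p65-deficient libraries have a similar depth, gave the smallest of the 3 log2 ratios, 0.45.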
